A study of Mus musculus with 28 samples.

Results

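Fc receptor genes encode the proteins through which macrophages bind antibody, and 7 of them were followed here: Fcgr1, Fcgr3 and Fcgr4, the shared signalling chain Fcer1g, the inhibitory receptor Fcgr2b, the neonatal receptor gene Fcgrt and the receptor-like gene Fcrls. They were taken by gene symbol, and 7 of 7 were found among the 14617 genes of the deposited table. RNA was counted with MARS-seq, a bulk method that captures the 3′ ends of polyadenylated transcripts and counts each captured molecule once through a unique molecular identifier (UMI). All recipients were Cx3cr1 gfp/+ mice, which carry GFP in place of 1 copy of the Cx3cr1 gene, and all were lethally irradiated and given bone marrow. The marrow was Vav-Cre: hDNMT3A fl/fl (called mutant) or hDNMT3A fl/fl without the Cre (called control), so both carried the floxed hDNMT3A allele. Vav-Cre acts in blood-forming cells and their progeny, and the labels name it for the mutant marrow and not for the recipients.

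At 16 weeks after transplantation, GFP-negative cells (called donor) and GFP-positive cells (called host) were sorted from the leptomeninges, the thin membranes over the brain surface, and from the brain parenchyma, whose cells the labels name microglia. The groups were mutant and control donor leptomeningeal cells with 4 libraries each, mutant and control host leptomeningeal cells with 2 libraries each, mutant and control donor microglia with 4 libraries each, and mutant and control host microglia with 4 libraries each, 28 libraries in all. Since no label ties the libraries of a group to separate animals, each p-value reflects library-to-library spread alone, which may be technical. Age and sex of the mice are not stated in the labels.

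Fc receptors for IgG are divided by their tails. Fcgr1, Fcgr3 and Fcgr4 are activating receptors of the mouse that have no signalling motif of their own and depend on the Fcer1g chain, whose activation motif (ITAM) recruits the kinase Syk after antibody-coated particles cross-link the receptor. Fcgr2b carries an inhibitory motif (ITIM) that recruits the phosphatase encoded by Inpp5d, and it dampens the same signals. Fcgrt encodes the heavy chain of the neonatal Fc receptor, which pairs with beta-2 microglobulin (B2m) and returns IgG and albumin from endosomes to the cell surface. Fcrls, a gene with a mouse protein related to the Fc receptors, is widely used as a marker of mouse microglia.

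Library totals lay between 479077 and 3066506 UMIs, the median being 1634653.5, so that 3 UMIs correspond to 0.978 CPM (a gene's UMIs divided by the library total and scaled alike in every library) at the greatest depth and to 6.26 CPM at the smallest. These limits cover counting error only. The smallest count of any of the 7 genes in a library was 7 UMIs, for Fcgr4 in control donor microglia library 4, and 7 of 7 passed the low-count filter that left 12327 genes for testing. The labelled cell types were checked against marker genes. Tmem119, a microglial gene, averaged 112.9 ± 35.7 CPM in donor leptomeningeal cells and 631 ± 296 in host leptomeningeal cells, against 923 ± 156 in donor microglia and 4309 ± 270 in host microglia (SD, n = 8, 4, 8 and 8). Sall1, a transcription factor of resident microglia, averaged 17.1 ± 8.16 CPM in donor microglia and 334.8 ± 23.1 in host microglia (n = 8 each), so the donor cells of the parenchyma carried the microglial label without the microglial level of this gene. A list of 8 genes of border macrophages held 0.259 to 0.486% of UMIs in donor and 0.867 to 1.23% in host leptomeningeal cells, against 0.114 to 0.168% in donor and 0.0078 to 0.0112% in host microglia. A list of 12 neutrophil genes held 3.63 to 9.76% of UMIs in donor and 0.184 to 0.585% in host leptomeningeal cells, against 0.0956 to 1.03% in donor and 0.0163 to 0.114% in host microglia. In bulk libraries, fewer cells of a type and less RNA per cell cannot be told apart.

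On the mm10 build (GENCODE M21), 4 of the genes lie on chromosome 1. Their positions are chr1:170958617-170976547 for Fcgr2b, chr1:171018920-171029761 for Fcgr4, chr1:171051174-171064935 for Fcgr3 and chr1:171229572-171234365 for Fcer1g, with Fcgr4 on the plus strand and the others on the minus strand. Fcrls (chr3:87250758-87263738) and Fcgr1 (chr3:96282909-96293969) lie on chromosome 3 and Fcgrt (chr7:45092990-45103851) on chromosome 7, all on the minus strand. All 7 are annotated as protein-coding. Fcgr2b and Fcgr3 are close relatives, and their longest protein-coding reference transcripts share an exact run of 129 bases. Within the last 500 bases of the longest transcript of each gene, no pair of the 7 shares more than 13 bases in a row. It is near 3′ ends that 3′ counting takes its reads, and other annotated 3′ ends of these genes were not compared. Antisense genes overlap Fcgr2b (Gm38204) and Fcgrt (Gm45669), neither of which has a row in the table, and the labels do not state whether the counting used strand.

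The promoters of 4 members are shown because their RNA took the most different courses in the results: Fcgr1 and Fcrls varied alike across libraries, Fcgr4 varied opposite to them, and Fcgrt had the largest difference between the compartments. Each is the window from 250 bases before to 50 bases after the annotated start, from RefSeq on GRCm38.p6, given 5′ to 3′ on the strand of the gene. Capitals mark the ETS-type core GAGGAA or its reverse complement TTCCTC, letters that factors such as PU.1 of the myeloid lineage can bind.
Fcgr1, chr3:96293920-96294219 (minus strand): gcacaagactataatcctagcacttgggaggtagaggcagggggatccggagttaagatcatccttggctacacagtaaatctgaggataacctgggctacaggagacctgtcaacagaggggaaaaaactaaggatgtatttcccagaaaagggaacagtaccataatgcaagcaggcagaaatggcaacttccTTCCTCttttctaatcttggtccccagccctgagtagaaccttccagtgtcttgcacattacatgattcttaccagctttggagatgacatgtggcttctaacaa
Fcrls, chr3:87263475-87263774 (minus strand): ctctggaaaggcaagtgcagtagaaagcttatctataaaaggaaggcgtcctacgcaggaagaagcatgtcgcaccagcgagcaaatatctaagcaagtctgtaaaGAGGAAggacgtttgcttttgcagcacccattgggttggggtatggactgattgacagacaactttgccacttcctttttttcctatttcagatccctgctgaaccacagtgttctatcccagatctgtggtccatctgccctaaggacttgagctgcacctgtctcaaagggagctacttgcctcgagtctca
Fcgr4, chr1:171018676-171018975 (plus strand): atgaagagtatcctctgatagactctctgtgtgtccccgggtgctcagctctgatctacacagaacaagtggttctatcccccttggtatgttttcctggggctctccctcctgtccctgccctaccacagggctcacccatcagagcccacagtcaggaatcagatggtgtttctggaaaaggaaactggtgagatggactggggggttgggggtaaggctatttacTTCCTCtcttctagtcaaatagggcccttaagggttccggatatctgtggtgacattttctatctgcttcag
Fcgrt, chr7:45103773-45104072 (minus strand): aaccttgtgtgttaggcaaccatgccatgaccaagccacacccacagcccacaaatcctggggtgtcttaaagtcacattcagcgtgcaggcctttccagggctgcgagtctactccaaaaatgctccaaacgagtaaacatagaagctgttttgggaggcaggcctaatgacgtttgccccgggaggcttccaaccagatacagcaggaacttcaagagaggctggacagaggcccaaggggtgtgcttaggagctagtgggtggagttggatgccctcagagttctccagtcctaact

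The core was found in the windows of 4 of 7 members, Fcgr1, Fcgr3, Fcgr4 and Fcrls, and in 28.3% of 32851 promoter windows of all genes. The STAT-type motif TTCNNNGAA was found in 1 member, Fcgr1, and in 8.30% of all windows. The IRF-type motif (GAAA, then 2 bases of any kind, then GAAA, on either strand) was found in 1 member, Fcgr4, and in 3.44% of all windows. Of the motifs searched, 0 matched in the windows of Fcgr2b, Fcer1g and Fcgrt. A match is a description of letters and not of a bound site.

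Levels differed among the 4 cell populations for each gene, and the order of the populations was not the same from gene to gene. Fcgr1, Fcgr3 and Fcrls were highest in host microglia, Fcer1g, Fcgr2b and Fcgrt in host leptomeningeal cells, and Fcgr4 in donor leptomeningeal cells. Levels are given in CPM of the library total. Folds are on the log2 scale, with their standard errors (SE), from edgeR's quasi-likelihood test on TMM-scaled counts over all 28 libraries, averaged over the 2 marrow genotypes where populations are compared, and a gene is called at an adjusted p below 0.05 (Benjamini-Hochberg over 12327 genes).

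**Figure D1:**
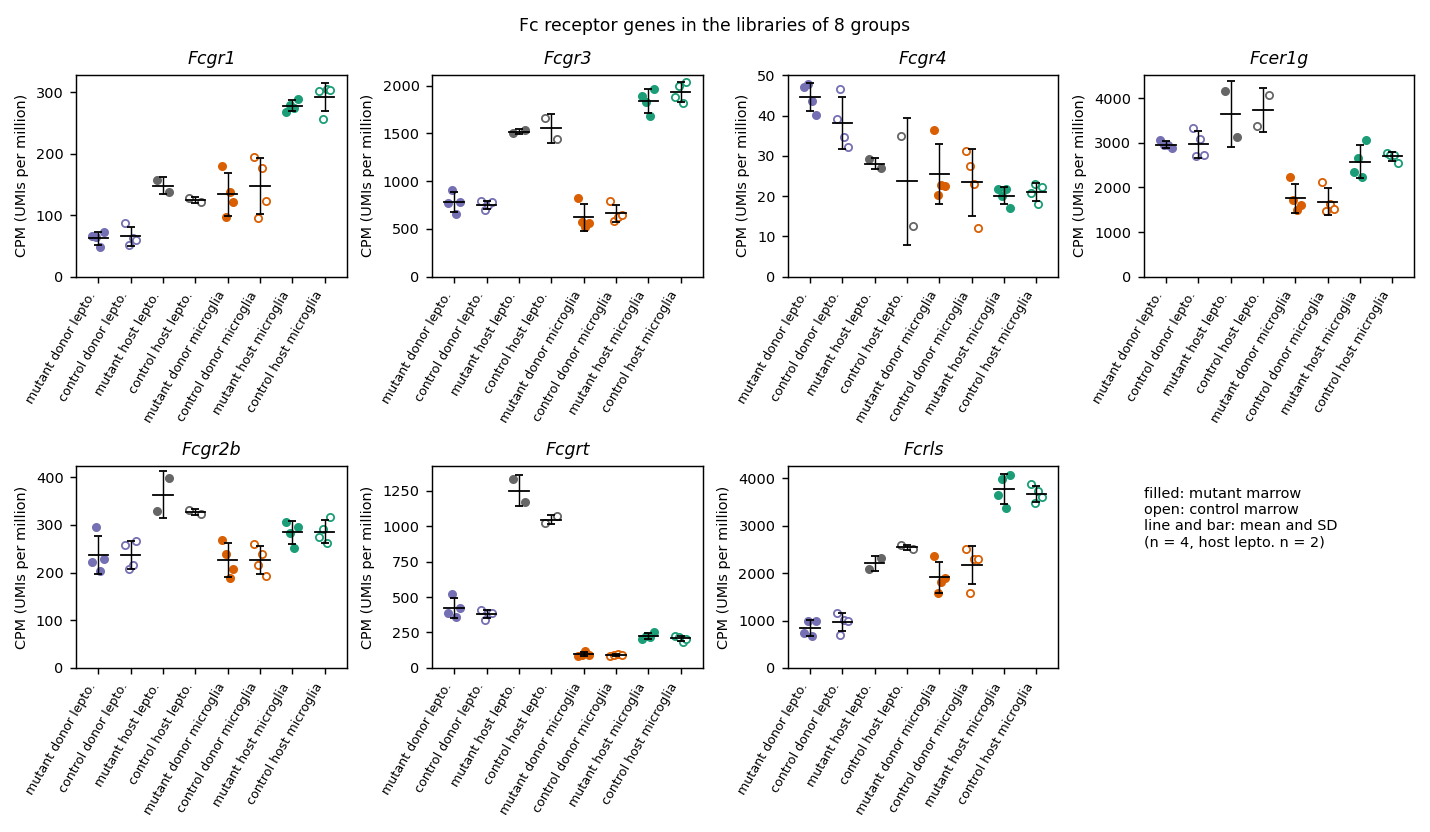
Level of each Fc receptor gene in CPM (vertical axes, linear and starting at 0) in the libraries of the 8 groups, with points for libraries and a line and bar for the mean and SD. Host microglia lie above the other populations for Fcgr1, Fcgr3 and Fcrls, and host leptomeningeal cells lie near 1149 CPM for Fcgrt, above every other library.

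The first comparison asked how the GFP-negative donor cells differ from the GFP-positive host cells of the same compartment. In the parenchyma, donor microglia carried less RNA of the high-affinity receptor Fcgr1, of Fcgr3, of Fcer1g, of Fcgrt and of Fcrls than host microglia, and more of Fcgr4. Of the 7 genes, 6 were called, 1 higher and 5 lower, where 60.4% of all genes tested were called (33.1% higher and 27.3% lower). The median log2 fold of the 7 genes was -0.70, against 0.04 over all genes tested.

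Fcgr3, the activating receptor of lower affinity, had the largest difference of the 7 genes between these populations. Donor microglia held from 522 to 827 CPM of Fcgr3 with a median of 606, against 1678 to 2039.95 CPM with a median of 1885 in host microglia. The ranges did not overlap, and the fold was -1.38 ± 0.09 (adjusted p = 1.57e-18). Fcgr1 lay between 95.3 and 194 CPM in donor microglia with a median of 130.1, against 257 to 306 CPM with a median of 285 in host microglia. No donor library reached the host range, and the fold was -0.85 ± 0.12 (adjusted p = 2.70e-07). Among donor microglia both ends of the range were control libraries, with 194 CPM in library 1 and 95.3 CPM in library 2.

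Fcgr4, the third activating receptor, was scarce in both populations and went the other way. It lay between 12.1 and 36.5 CPM in donor microglia with a median of 22.9, against 17.1 to 23.1 CPM with a median of 21.3 in host microglia. The donor range enclosed the host range, and the fold was 0.43 ± 0.18 (adjusted p = 0.0328). This call was lost with library totals in place of TMM scaling (0.25 ± 0.18, adjusted p = 0.211) and with voom (0.33 ± 0.19, adjusted p = 0.141). With 1 library left out it was called in 10 of 16 fits. The libraries without which it was not called were mutant donor microglia library 1, control donor microglia libraries 1, 2 and 3, mutant host microglia library 2 and control host microglia library 3 (folds of 0.29 to 0.41, adjusted p = 0.0529 to 0.175). The lowest was 0.29 ± 0.18 (adjusted p = 0.175) without mutant donor microglia library 1.

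Fcer1g, the chain that the activating receptors need, had from 1463 to 2225 CPM in donor microglia with a median of 1614, against 2228 to 3054 CPM with a median of 2694 in host microglia. The highest donor library, mutant library 1, was just below the lowest host library, and the fold was -0.44 ± 0.09 (adjusted p = 7.03e-05). Fcgr2b, the inhibitory receptor, had 189 to 268 CPM in donor microglia with a median of 227, against 252 to 317 CPM with a median of 288 in host microglia. These ranges overlapped, and the fold of -0.16 ± 0.09 was not called (adjusted p = 0.119, 95% interval -0.33 to 0.02). With library totals the fold of Fcgr2b was -0.33 ± 0.09 and called (adjusted p = 0.00117). It was also called without mutant donor microglia library 1 or 2 or control donor microglia library 1 or 3, at -0.21 to -0.23 (adjusted p = 0.0249 to 0.0415).

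Fcgrt, for the neonatal receptor, had from 83.5 to 122 CPM in donor microglia with a median of 92.6, against 183 to 254 CPM with a median of 219.5 in host microglia. The populations were fully apart, and the fold was -1.02 ± 0.09 (adjusted p = 4.70e-13). Fcrls had from 1587 to 2501 CPM in donor microglia with a median of 2089.7, against 3376 to 4067 CPM with a median of 3694 in host microglia. Its fold was -0.70 ± 0.10 (adjusted p = 7.73e-08), with no overlap. By comparison, the fold of its fellow microglial marker list of 8 genes had a median of -2.15 in the same contrast, and 8 of 8 of those genes were called lower.

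Donor microglia also carried more RNA of other brain cells, with 5 astrocyte genes at 0.0455 to 0.258% of UMIs, against 0.000194 to 0.000951% in host microglia. Genes of other myeloid cells moved with this comparison too, with 8 of 8 monocyte genes (median fold 2.86), 9 of 12 neutrophil genes (3.08) and 6 of 8 border macrophage genes (2.40) called higher in donor microglia and 0 lower. The monocyte genes held 0.0357 to 0.0787% of UMIs in donor microglia, against 0.00763 to 0.0142% in host microglia. General macrophage genes mostly went the other way, with 4 of 6 called lower and 1 higher in donor microglia (median fold -0.33). They held 0.606 to 0.917% of UMIs in donor microglia, against 1.244 to 1.4998% in host microglia. The part of all these transcripts in the differences between donor and host microglia, those of the Fc receptor genes included, was not tested. A further fit left out both of the shallowest libraries (mutant donor microglia library 4 with 487382 UMIs and control donor microglia library 1 with 479077 UMIs). It called 6 of the 7 genes, and 7487 genes over all genes tested. The 6 were not the same, with Fcgr2b at -0.23 ± 0.09 (adjusted p = 0.0254) called and Fcgr4 at 0.32 ± 0.19 not (adjusted p = 0.152).

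In the leptomeninges, donor cells again carried less Fcgr1, Fcgr3, Fcgrt and Fcrls than host cells, less Fcgr2b, and more Fcgr4. Of the 7 genes, 6 were called, 1 higher and 5 lower, where 30.2% of all genes tested were called (16.9% higher and 13.3% lower). The median log2 fold of the 7 was -0.77, against 0.01 over all genes tested. Of the 6 general macrophage genes, 3 were called lower and 1 higher in donor leptomeningeal cells, with a median fold of -0.30. They held 0.541 to 0.751% of UMIs in donor leptomeningeal cells, against 0.985 to 1.08% in host leptomeningeal cells, and their part in the Fc receptor folds was not tested.

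Fcgrt had the largest fold. Donor leptomeningeal cells held from 341 to 525 CPM of Fcgrt with a median of 389.7, against 1329 and 1173 CPM in mutant and 1025 and 1068 CPM in control host leptomeningeal cells. Every host library exceeded every donor library, and the fold was -1.28 ± 0.09 (adjusted p = 7.04e-15). Fcrls had from 669 to 1154 CPM in donor leptomeningeal cells with a median of 982, against 2095 and 2310 CPM in mutant and 2585 and 2500.3 CPM in control host leptomeningeal cells. Its libraries were likewise apart, with a fold of -1.16 ± 0.12 (adjusted p = 1.16e-10).

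Fcgr1 had from 47.6 to 86.8 CPM in donor leptomeningeal cells with a median of 63.6, against 158 and 138 CPM in mutant and 128 and 122 CPM in control host leptomeningeal cells. The donor libraries were the lowest of all 28 for this gene, and the fold was -0.85 ± 0.15 (adjusted p = 2.50e-05). Fcgr3 had from 655 to 911 CPM in donor leptomeningeal cells with a median of 776, against 1502 and 1535 CPM in mutant and 1662 and 1445 CPM in control host leptomeningeal cells, with no overlap. Its fold was -0.77 ± 0.10 (adjusted p = 2.64e-08).

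Fcgr4 had from 32.1 to 47.8 CPM in donor leptomeningeal cells with a median of 41.9, against 29.1 and 27.1 CPM in mutant and 34.9 and 12.5 CPM in control host leptomeningeal cells. A single host library, control library 1, reached into the donor range, and the fold was 0.88 ± 0.18 (adjusted p = 0.000140). Neutrophils, which also express Fcgr4 in the mouse, moved with this difference: the 12 neutrophil genes were all called higher in donor than in host leptomeningeal cells, with a median fold of 4.30 and the shares given above. Monocytes, which express Fcgr4 as well, moved likewise: 8 of 8 monocyte genes were called higher, with a median fold of 2.06 and 0.280 to 0.567% of UMIs in donor leptomeningeal cells, against 0.0570 to 0.0856% in host leptomeningeal cells. Without both donor leptomeningeal libraries of highest neutrophil share (control library 2 and mutant library 3), the fold of Fcgr4 was 0.81 ± 0.19 (adjusted p = 0.000737), and the part of the remaining neutrophils and of monocytes in it was not tested.

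Fcer1g had from 2701 to 3336 CPM in donor leptomeningeal cells with a median of 2951, against 4163 and 3124 CPM in mutant and 3384 and 4073 CPM in control host leptomeningeal cells. The ranges overlapped, and the fold of -0.08 ± 0.11 was not called (adjusted p = 0.636, 95% interval -0.31 to 0.15). With library totals the fold of Fcer1g was -0.32 ± 0.10 and called (adjusted p = 0.0150). Fcgr2b had from 204 to 295 CPM in donor leptomeningeal cells with a median of 225, against 329 and 399 CPM in mutant and 332 and 323 CPM in control host leptomeningeal cells. Its libraries did not overlap, and its fold was -0.31 ± 0.10 (adjusted p = 0.0144). The call of Fcgr2b was lost without mutant host leptomeningeal library 2 (-0.26 ± 0.12, adjusted p = 0.109) and without both libraries of highest neutrophil share (-0.26 ± 0.11, adjusted p = 0.0598).

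**Figure D2:**
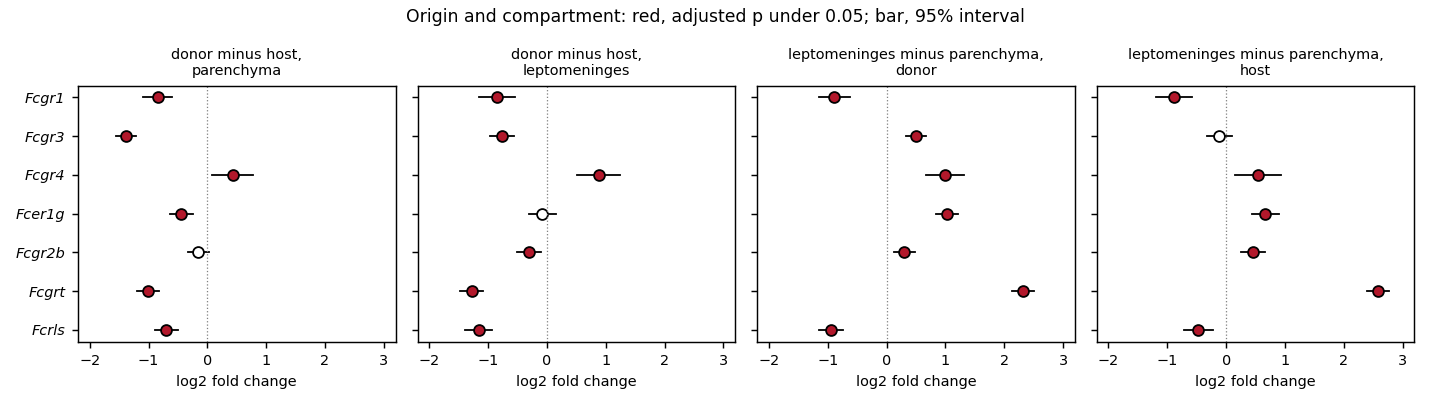
Log2 fold change (horizontal axis) of each Fc receptor gene with its 95% interval, for donor minus host cells by compartment and leptomeninges minus parenchyma by origin, with both genotypes averaged; red points were called. Fcgr4 stands right of 0 in all 4 panels and Fcgr1 and Fcrls left of 0 in all 4, while Fcgrt reaches 2.58 in the rightmost panel.

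The second comparison set cells of the same origin in the leptomeninges against those in the parenchyma. Among donor cells, those of the leptomeninges carried more Fcgr3, Fcgr4, Fcer1g, Fcgr2b and Fcgrt and less Fcgr1 and Fcrls. All 7 genes were called, 5 higher and 2 lower, where 62.1% of all genes tested were called (30.5% higher and 31.6% lower), and their median fold was 0.50, against -0.03 over all genes tested. Fcgrt differed most, with a fold of 2.32 ± 0.09 (adjusted p = 3.93e-25) between means of 402 ± 55.5 CPM in donor leptomeningeal cells and 94.96 ± 12.4 CPM in donor microglia (SD, n = 8 each). Fcer1g followed with 1.03 ± 0.09 (adjusted p = 5.76e-13), and neither gene had overlapping libraries.

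Among the activating receptors of donor cells, Fcgr4 had a fold of 0.99 ± 0.16 (adjusted p = 7.04e-07) and Fcgr3 of 0.50 ± 0.09 (adjusted p = 2.32e-06), although a part of the libraries overlapped for each. Fcgr1 went the other way with -0.89 ± 0.13 (adjusted p = 3.48e-07), at 63.9 ± 12.02 CPM in donor leptomeningeal cells and 140.7 ± 38.6 CPM in donor microglia. For Fcrls the fold was -0.94 ± 0.10 (adjusted p = 8.46e-11), with means of 901 ± 176 CPM in donor leptomeningeal cells and 2042 ± 366 CPM in donor microglia. Fcgr2b had a fold of 0.30 ± 0.09 (adjusted p = 0.00251), from means of 237 ± 32.4 CPM in donor leptomeningeal cells and 227 ± 30.2 CPM in donor microglia, and this call was lost with library totals (0.06 ± 0.09, adjusted p = 0.546). Neutrophil genes moved with this comparison too, with 12 of 12 called higher in donor leptomeningeal cells, as did monocyte genes, with 7 higher and 1 lower of 8, and their part in it was not tested. Without the libraries of highest neutrophil share 7 of the 7 genes were called, Fcgr4 at 0.89 ± 0.17, and 7174 genes were called over all genes tested.

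Among host cells, those of the leptomeninges carried more Fcgrt, Fcer1g, Fcgr4 and Fcgr2b and less Fcgr1 and Fcrls than microglia. Of the 7 genes, 6 were called, 4 higher and 2 lower, where 56.7% of all genes tested were called (31.1% higher and 25.7% lower), and their median fold was 0.46, against 0.08 over all genes tested. Fcgrt had a fold of 2.58 ± 0.10 (adjusted p = 4.33e-27), between means of 1149 ± 135 CPM in host leptomeningeal cells and 217 ± 20.4 CPM in host microglia (n = 4 and 8). B2m, the partner of the neonatal receptor, was also called higher, with 1.04 ± 0.15 among donor cells (adjusted p = 2.70e-06) and 1.501 ± 0.18 among host cells (adjusted p = 1.20e-07).

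Fcer1g had a fold of 0.67 ± 0.11 among host cells (adjusted p = 1.63e-06), and Fcgr2b of 0.46 ± 0.10 (adjusted p = 0.000134), both with every leptomeningeal library above every microglial one. Fcgr1 had a fold of -0.88 ± 0.15 (adjusted p = 5.22e-06) and Fcrls of -0.47 ± 0.12 (adjusted p = 0.00116), both with every leptomeningeal library below. Fcgr3 was not called, with -0.11 ± 0.10 (adjusted p = 0.357, 95% interval -0.32 to 0.09). On library totals it was called, at -0.30 ± 0.10 (adjusted p = 0.0121), and its CPM ranges were apart, at 1445 to 1662 in host leptomeningeal cells and 1678 to 2039.95 in host microglia.

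Marker genes of several other cell types were called higher in host leptomeningeal cells than in host microglia as well, though of 2 endothelial genes tested 0 were higher and 1 lower. Mast cells carry Fcer1g and B cells carry Fcgr2b. Of 8 mast cell and basophil genes 5 passed the low-count filter and 5 were called higher, with shares of 0.000683 to 0.0393% of UMIs in host leptomeningeal cells, against 0 to 0.000145% in host microglia, where 6 of the 8 (Cpa3, Mcpt4, Tpsb2, Fcer1a, Ms4a2 and Mcpt8) had no UMI. Of the B and plasma cell genes 5 were tested and 3 were called higher, and their share was 0.0540 to 0.535% in host leptomeningeal cells, against 0.0698 to 0.0749% in host microglia. Library 1 of each genotype, at 0.0540% (mutant) and 0.0572% (control), lay below every host microglia library. Library 2 held 0.535% (mutant) and 0.386% (control). The call was higher for 10 of 12 neutrophil genes, 8 of 8 monocyte genes and 8 of 8 border macrophage genes. The part of these cells in the Fcer1g, Fcgr2b and other folds was not tested.

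The call of Fcgr4 among host cells, 0.54 ± 0.19 (adjusted p = 0.0162), rested on control host leptomeningeal library 1. That library held 34.9 CPM of Fcgr4, against 12.5 CPM in library 2 of its group, and without it the fold was -0.01 ± 0.24 (adjusted p = 1.00). The same library held 0.0393% of its UMIs in 8 genes of mast cells and basophils, against 0.000683% in library 2, and 0.585% in neutrophil genes, against 0.184%. The part of those cells in its Fcgr4 level was not tested. The call was also lost without mutant host leptomeningeal library 1 (0.49 ± 0.22, adjusted p = 0.0587) and with library totals (0.35 ± 0.19, adjusted p = 0.116).

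Whether the difference between compartments depended on the origin of the cells was tested as the donor minus host difference of the leptomeninges minus parenchyma contrasts. Of the 7 genes 3 were called, 2 higher and 1 lower, where 42.2% of all genes tested were called (19.1% higher and 23.2% lower). Fcgr3 differed by 0.61 ± 0.13 (adjusted p = 0.000253), with a compartment fold of 0.50 in donor cells and -0.11 in host cells. Fcrls differed by -0.47 ± 0.16 (adjusted p = 0.0133), with folds of -0.94 in donor and -0.47 in host cells. Fcer1g differed by 0.36 ± 0.15 (adjusted p = 0.0471), close to the threshold, and it was called in 13 of 28 fits that left out 1 library. In the others it lay between 0.27 and 0.36 (adjusted p = 0.0510 to 0.184), without mutant donor leptomeningeal library 1, 2 or 4, control donor leptomeningeal library 1 or 3, mutant host leptomeningeal library 2, control host leptomeningeal library 1, mutant donor microglia library 3 or 4, control donor microglia library 4, mutant host microglia library 2 or 4, or control host microglia library 1, 2 or 3. Over all 37 alternatives, which include those 28 fits, Fcer1g was called in 18. Other fits without the call included DESeq2 (0.28 ± 0.15, adjusted p = 0.141) and library totals (0.30 ± 0.14, adjusted p = 0.0788).

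Fcgr1 was not called, with a difference of -0.01 ± 0.19 and a 95% interval of -0.39 to 0.37 (adjusted p = 1.00). Fcgr2b had -0.16 ± 0.13 (adjusted p = 0.372), and Fcgrt had -0.26 ± 0.14 (adjusted p = 0.114). Fcgrt was called in 4 of 37 alternatives. Among these were DESeq2's size factors (-0.35 ± 0.14, adjusted p = 0.0391), library totals (-0.33 ± 0.13, adjusted p = 0.0458) and the fit without mutant donor leptomeningeal library 2 (-0.35 ± 0.13, adjusted p = 0.0325). Fcgr4 had 0.45 ± 0.25 (adjusted p = 0.152), and 1.01 ± 0.29 (adjusted p = 0.00469) without control host leptomeningeal library 1. Without mutant host leptomeningeal library 2 only Fcgr3 of the 7 was called, with Fcrls at -0.42 ± 0.17 (adjusted p = 0.0510), and without control host leptomeningeal library 1 Fcrls was at -0.39 ± 0.16 (adjusted p = 0.0643).

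The balance of activating to inhibitory receptors was described within each library as the UMIs of Fcgr1, Fcgr3 and Fcgr4 together per UMI of Fcgr2b, a ratio that does not depend on how libraries are scaled. The genes differ in how well their 3′ ends are captured, so the ratio compares populations and is not a count of proteins. It was 3.70 ± 0.26 in donor leptomeningeal cells and 4.94 ± 0.52 in host leptomeningeal cells, against 3.56 ± 0.39 in donor microglia and 7.71 ± 0.35 in host microglia (SD, n = 8, 4, 8 and 8). Host microglia lay between 7.10 and 8.19 in every library, above all others, and the donor populations overlapped each other at 3.26 to 4.00 in the leptomeninges and 2.88 to 4.08 in the parenchyma.

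Within the activating receptors, Fcgr4 made up 4.78 ± 0.82% of the UMIs in donor leptomeningeal cells and 1.51 ± 0.49% in host leptomeningeal cells, against 3.03 ± 0.69% in donor and 0.942 ± 0.105% in host microglia. Fcgr1 made up 7.31 ± 1.07% and 8.05 ± 0.97% in donor and host leptomeningeal cells, against 17.3 ± 2.84% and 13.02 ± 0.97% in donor and host microglia. Fcgr3 provided the rest in each population, so its level sets most of the ratio. Donor leptomeningeal cells, with the largest share of Fcgr4, also had the largest share of neutrophil UMIs, and the part of neutrophils in the Fcgr4 share was not tested.

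**Figure D3:**
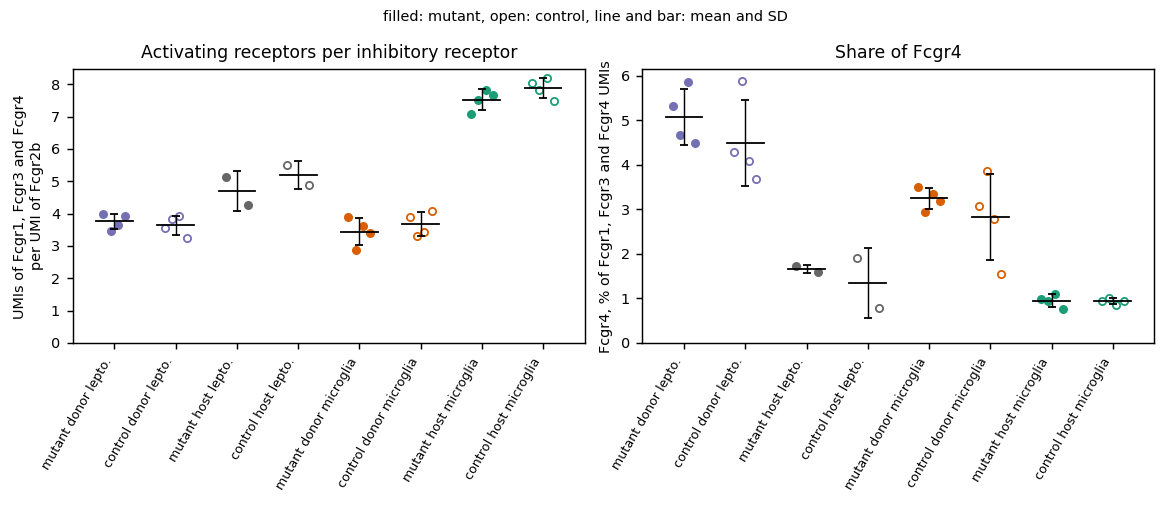
UMIs of the activating receptor genes Fcgr1, Fcgr3 and Fcgr4 per UMI of the inhibitory Fcgr2b (left) and the percentage of Fcgr4 among the activating UMIs (right) in each library of the 8 groups, with the mean and SD. Host microglia stand between 7.10 and 8.19 in the left panel. In the right panel they have the lowest mean and donor leptomeningeal cells the highest. Control host leptomeningeal library 2, at 0.793%, lies within the host microglia range of 0.752 to 1.10%.

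The comparison the study was built for set cells of mutant marrow recipients against cells of control marrow recipients in each population. None of the 7 genes was called in any population by edgeR, and 0 of 7 had an unadjusted p under 0.05 in any of the 4, nor did DESeq2 or voom call any of them. By edgeR all genes tested gave few calls as well, with 0.0487% called in donor leptomeningeal cells (0.0324% higher and 0.0162% lower), 0% in host leptomeningeal cells, 0.0892% in donor microglia (0.0568% higher and 0.0324% lower) and 0.0649% in host microglia (0.0568% higher and 0.00811% lower). An unadjusted p under 0.05 was found by edgeR for 597, 666, 1253 and 463 genes in the same order. The other methods gave more calls in donor microglia, 84 by DESeq2 and 124 by voom, against 11 by edgeR. In donor leptomeningeal, host leptomeningeal cells and host microglia DESeq2 called 8, 26 and 15 genes and voom 11, 0 and 5.

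In donor leptomeningeal cells, the largest fold of the 7 was that of Fcgr4, at 0.24 ± 0.17 with a 95% interval of -0.12 to 0.59 (adjusted p = 1.00). Mutant donor leptomeningeal cells held 47.1, 47.8, 43.7 and 40.1 CPM of Fcgr4, against 39.2, 46.6, 34.7 and 32.1 CPM in control donor leptomeningeal cells, so the groups overlapped. Fcgrt had 0.17 ± 0.11, with mutant libraries at 389, 525, 359 and 423 CPM, against 406, 341, 390.4 and 385.5 CPM in control libraries. The intervals of the other 5 genes in this population lay within -0.45 and 0.32.

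In donor microglia, the GFP-negative cells of the parenchyma, Fcrls had the largest fold, at -0.17 ± 0.14 with a 95% interval of -0.45 to 0.11 (adjusted p = 0.716). Mutant donor microglia held 2369, 1587, 1807 and 1889.7 CPM of Fcrls, against 2501, 1589, 2289.7 and 2305 CPM in control donor microglia. Fcgr4 had the widest interval, -0.40 to 0.72 around 0.16, with mutant libraries at 36.5, 20.3, 22.9 and 22.6 CPM, against 31.3, 27.4, 23.0 and 12.1 CPM in control libraries. In host microglia, whose cells did not carry the marrow allele, folds of the 7 genes ran from -0.04 to 0.14, the last being Fcgrt with an interval of -0.09 to 0.38.

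In host leptomeningeal cells, with 2 libraries per genotype, Fcgrt had the largest fold of the family, at 0.31 ± 0.16 with an interval of -0.01 to 0.63 (adjusted p = 0.921). Its mutant libraries held 1329 and 1173 CPM, against 1025 and 1068 CPM in control libraries, which do not overlap. Fcgr1 had 0.28 ± 0.25, with 158 and 138 CPM in mutant against 128 and 122 CPM in control libraries, also without overlap. Fcrls was apart in the other direction, at -0.16 ± 0.20, with 2095 and 2310 CPM in mutant against 2585 and 2500.3 CPM in control libraries. How many of all genes tested were apart in this way was not counted. With 2 libraries a side, these values were not distinguished from the spread between libraries. The genotype effects were also compared between donor and host microglia and between leptomeningeal and parenchymal donor cells, where edgeR called 0 of 7 genes, against 0.0324% and 0% of all genes tested, and 0 of 7 had an unadjusted p under 0.05. Over all 12327 genes tested, 745 and 787 had such a p.

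**Figure D4:**
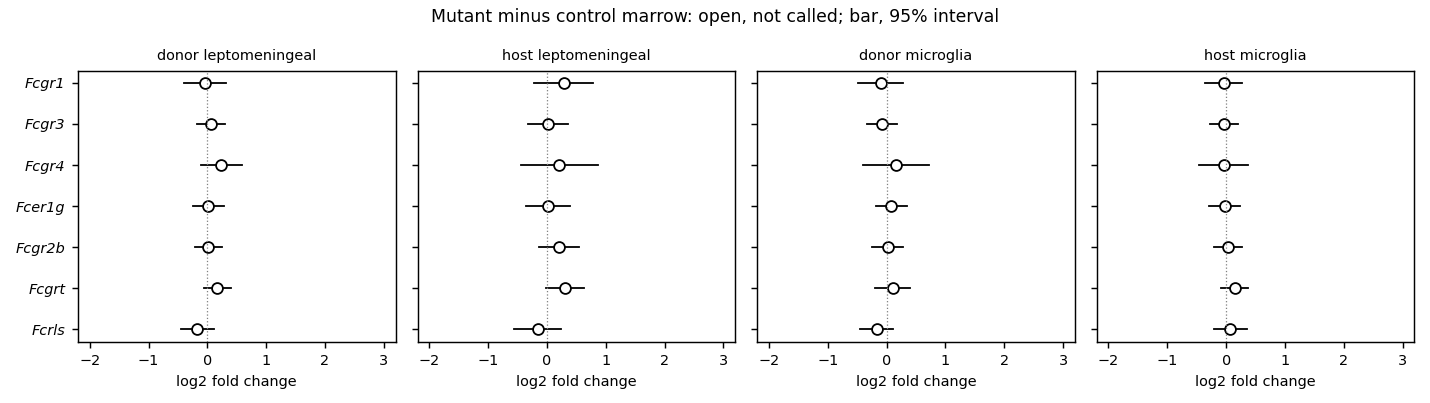
Log2 fold change of mutant minus control (horizontal axis, same scale as for origin and compartment) of each Fc receptor gene in the 4 populations, with its 95% interval. No gene was called, every interval includes 0, and the widest is that of Fcgr4 in host leptomeningeal cells (2 libraries a side), from -0.44 to 0.86.

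Genes that carry the signal of these receptors were then counted by list, to be read against the 30.2% of all genes tested that were called in donor minus host leptomeninges (16.9% higher and 13.3% lower) and the 60.4% in donor minus host parenchyma (33.1% higher and 27.3% lower). For the partners and ITAM kinases, 8 of 8 were tested, with 3 higher and 1 lower in donor minus host leptomeninges and 1 higher and 5 lower in donor minus host parenchyma. The median folds of that list were 0.08 in the leptomeninges and -0.40 in the parenchyma, against 0.01 and 0.04 over all genes tested. Syk, the kinase recruited by the Fcer1g motif, had 0.49 ± 0.13 in the leptomeninges (adjusted p = 0.00211) and -0.81 ± 0.12 in the parenchyma (adjusted p = 7.96e-08). Lyn, a kinase that phosphorylates both motifs, had -1.18 ± 0.09 in the parenchyma (adjusted p = 4.48e-16), and Fgr, a Src-family kinase abundant in neutrophils and monocytes, had 2.77 ± 0.20 in the leptomeninges (adjusted p = 3.07e-13).

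Tyrobp, the other ITAM chain of these cells and not the usual partner of the Fc receptors for IgG, was not called in any of the origin and compartment contrasts, with folds of 0.11 and 0.06 for donor minus host in the leptomeninges and parenchyma and -0.18 and -0.23 for leptomeninges minus parenchyma in donor and host cells. For the adaptors and effectors below Syk, 16 of 16 were tested, with 7 higher and 3 lower in donor minus host leptomeninges and 1 higher and 11 lower in donor minus host parenchyma, against the same shares of all genes. Their median folds were 0.16 in the leptomeninges and -0.57 in the parenchyma, against 0.01 and 0.04 over all genes tested. The single gene higher in the parenchyma was Vav3, an exchange factor that acts below Syk, at 4.65 ± 0.50 (adjusted p = 8.81e-11). In that contrast 5 of 5 astrocyte genes (median fold 6.69) and 5 of 5 neuron genes (4.82) were called higher too. Of 3 oligodendrocyte genes tested 2 were higher and 1 lower (4.75). The part of such RNA in the Vav3 fold was not tested. Plcg2, the phospholipase that follows Syk, had 1.04 ± 0.15 in the leptomeninges (adjusted p = 6.80e-07) and -1.10 ± 0.13 in the parenchyma (adjusted p = 2.49e-09). Rac2, a GTPase of phagocytes that is abundant in neutrophils, had 1.10 ± 0.17 in the leptomeninges (adjusted p = 9.91e-07), where neutrophil and monocyte genes were higher by the values above. The part of neutrophils and monocytes in the leptomeningeal Syk, Fgr, Plcg2 and Rac2 folds was not tested.

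For the inhibitory ITIM pathway, 13 of 13 were tested, with 6 higher and 2 lower in donor minus host leptomeninges and 4 higher and 7 lower in donor minus host parenchyma, where 30.2% and 60.4% of all genes tested were called. Their median folds were 0.37 in the leptomeninges and -0.49 in the parenchyma, against 0.01 and 0.04 over all genes tested. Inpp5d, the phosphatase that Fcgr2b recruits, had -1.12 ± 0.09 in the parenchyma (adjusted p = 2.68e-15). Clec12a, an inhibitory lectin of myeloid cells, had 1.54 ± 0.13 in the leptomeninges (adjusted p = 3.07e-13) and 5.23 ± 0.14 in the parenchyma (adjusted p = 8.39e-32). Sirpa, the receptor for the signal CD47, had -0.69 ± 0.10 in the leptomeninges (adjusted p = 1.96e-07) and -1.51 ± 0.08 in the parenchyma (adjusted p = 1.43e-20). Of 7 other receptors that pair with Fcer1g, 3 passed the low-count filter, and the lectin receptors Clec4e, Clec4d and Clec4n were called higher in donor than in host microglia, by 2.80 ± 0.49, 4.45 ± 0.57 and 5.41 ± 0.30. In that contrast 8 of 8 monocyte, 9 of 12 neutrophil and 6 of 8 border macrophage genes were called higher too, and the part of such cells in the Clec12a, Clec4e, Clec4d and Clec4n folds was not tested. In the leptomeninges Clec4n was lower in donor cells, at -1.07 ± 0.15 (adjusted p = 3.96e-07), and Clec4e higher, at 2.68 ± 0.23 (adjusted p = 5.40e-13). There 12 of 12 neutrophil and 8 of 8 monocyte genes were called higher in donor cells. The part of such cells in the leptomeningeal Clec12a and Clec4e folds was not tested.

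Between compartments, where 62.1% of all genes tested were called in donor cells (30.5% higher and 31.6% lower) and 56.7% in host cells (31.1% higher and 25.7% lower), the kinase list had 3 higher and 2 lower genes in donor cells and 2 higher and 3 lower in host cells, the adaptor list 8 higher and 4 lower in donor cells and 3 higher and 7 lower in host cells, and the ITIM list 6 higher and 3 lower in donor cells and 6 higher and 6 lower in host cells. The median folds of the 3 lists were -0.11, 0.32 and 0.41 in donor cells, against -0.03 over all genes tested, and -0.13, -0.19 and -0.09 in host cells, against 0.08 over all genes tested. Syk had 1.28 ± 0.12 among donor cells (adjusted p = 4.38e-13) and -0.02 ± 0.13 among host cells (adjusted p = 0.904), and these effects differed by 1.30 ± 0.17 (adjusted p = 4.38e-08). Among donor cells 12 of 12 neutrophil genes were called higher in the leptomeninges too, and their part in the Syk folds was not tested. Pirb, an inhibitory receptor of myeloid cells, had 2.93 ± 0.10 among donor cells (adjusted p = 4.15e-27) and 2.83 ± 0.11 among host cells (adjusted p = 9.95e-26).

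Of 11 other Fc receptor genes, 7 had a row in the table and 2 passed the low-count filter. Fcrl1, a receptor-like gene known from B cells, had 4.57 ± 1.74 CPM in donor and 11.6 ± 7.73 in host leptomeningeal cells, against 52.1 ± 6.29 in donor and 74.0 ± 7.22 in host microglia. It was called lower in the leptomeninges in both origins, with folds of -3.21 ± 0.18 in donor cells (adjusted p = 1.15e-19) and -2.57 ± 0.21 in host cells (adjusted p = 1.79e-14). The B cell gene Cd79a had at most 0.490 CPM in any library of donor or host microglia, where Fcrl1 was highest. The whole list of B and plasma cell genes held 0.0339 to 0.0645% of UMIs in donor and 0.0698 to 0.0749% in host microglia. In the leptomeninges it held 0.0459 to 0.400% in donor and 0.0540 to 0.535% in host cells. The part of B cells in the Fcrl1 levels was not tested. Trim21, the cytosolic antibody receptor, was called in host leptomeninges minus parenchyma (1.07 ± 0.24, adjusted p = 0.000190) and in donor minus host leptomeninges (-0.69 ± 0.24, adjusted p = 0.0233). In the genotype comparisons edgeR called 0 of the 43 tested genes of these 6 lists in any population (other Fc receptors, kinases, adaptors, ITIM pathway, receptors that pair with Fcer1g, and B2m). An unadjusted p under 0.05 was found for 3 of them in donor leptomeningeal cells, 4 in host leptomeningeal cells, 6 in donor microglia and 2 in host microglia. Over all 12327 genes tested, it was found for 597, 666, 1253 and 463 in the same order. Among the 4 list genes in host leptomeningeal cells, Fcrl1 had -1.32 ± 0.44 (adjusted p = 0.582, unadjusted p = 0.00415).

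Across all 28 libraries the 7 genes fell into unlike courses. Fcgr1 and Fcrls varied alike (Pearson's r = 0.95 on log2 CPM), and still did so after the mean of each group was taken away (r = 0.80). Fcer1g and Fcgrt had r = 0.89 over the libraries but 0.06 after the group means were taken away. Fcgr4 and Fcrls varied oppositely over the libraries, with r = -0.82, and had -0.03 within groups. These are descriptions over libraries that share populations, depth and scaling, and no test was made of them.

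**Figure D5:**
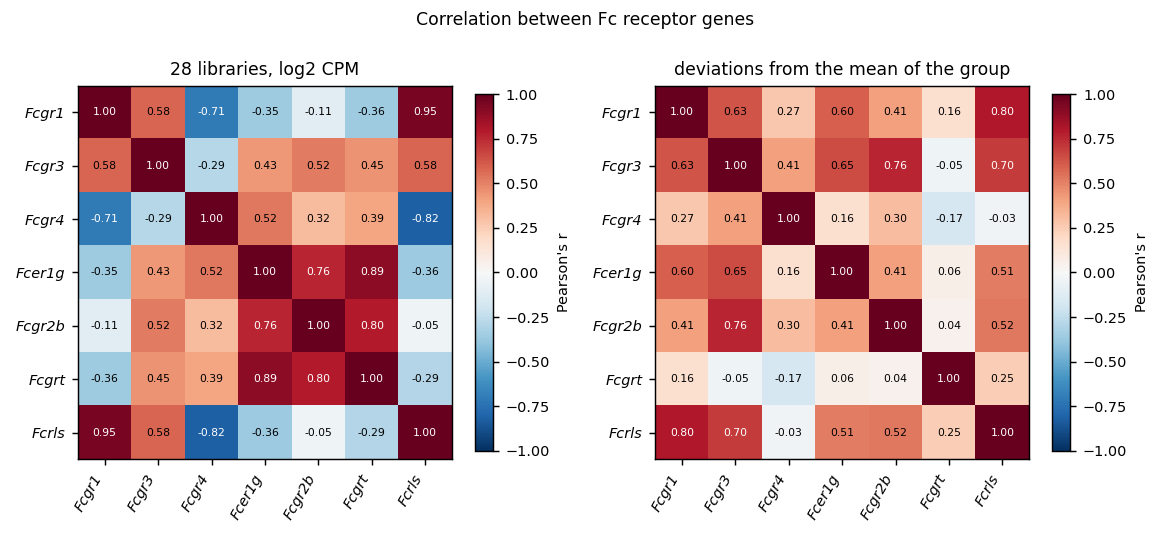
Pearson's r between the 7 genes on log2 CPM over 28 libraries (left) and on the deviations of each library from the mean of its group (right), on a colour scale from -1 to 1. Fcgr1 and Fcrls have 0.95 on the left and 0.80 on the right, whereas Fcer1g and Fcgrt have 0.89 on the left and 0.06 on the right.

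Among 8467 genes with a mean of at least 10 CPM, those most like each member over the 28 libraries were named by Pearson's r. For Fcgr1 they were Slc3a2 (0.98), Tbxas1 (0.97) and Lgmn (0.96), and for Fcrls they were Lgmn (0.97), Tanc2 (0.97) and C1qc (0.96). Fcgr3 was nearest to Grap (0.97), Tcn2 (0.96) and Cdkn1a (0.96), and Fcgrt to Ap1b1 (0.97), Cndp2 (0.96) and Gas6 (0.96). Fcer1g had Akr1a1 (0.94), Cndp2 (0.94) and Necap2 (0.94). The nearest genes were less alike for Fcgr4, with Stx3 (0.88), Nhp2 (0.87) and Phf11b (0.87), and for Fcgr2b, with Cltc (0.86), Snap23 (0.85) and Cd302 (0.83).

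Ordered by mean level, Fcgr1 ran from host microglia over donor microglia and host leptomeningeal cells, whose libraries overlapped each other, to donor leptomeningeal cells. Fcrls kept that order except that host leptomeningeal cells, at 2373 ± 218 CPM, stood before donor microglia, again with overlapping libraries. Fcgr3 ran from host microglia over host leptomeningeal cells to donor leptomeningeal cells and donor microglia, of which only the last pair overlapped. Fcgrt ran from host over donor leptomeningeal cells to host and then donor microglia, with no overlap between neighbours. Fcer1g had the same order as Fcgrt, with overlap between all neighbours except host and donor microglia. Fcgr2b ran from host leptomeningeal cells to host microglia, donor leptomeningeal cells and donor microglia, with overlap from the second place on. Fcgr4 ran from donor over host leptomeningeal cells to donor and host microglia, and every neighbouring pair overlapped.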

How the data were processed

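RNA of 28 bulk MARS-seq libraries was analysed from 1 table, with groups taken from the sample titles. Per the file headers, the authors gave every library 3 columns: raw UMI counts, which alone were used here, a normalized signal (counts over a size factor) and regularised log2 values. Per the submitters' processing notes the build was mm10, and no aligner is named in the labels.

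Levels are CPM over the library total. Tests used edgeR 4.0.16 (filterByExpr on the 8 groups, TMM, robust quasi-likelihood fit, 1 mean per group over all 28 libraries) in R 4.3.3, with Benjamini-Hochberg adjustment over 12327 genes at 0.05. Depth was 479077 to 3066506 UMIs. The SE is the fold divided by the square root of F. Correlations used log2 CPM with a prior count of 2. Alternatives were DESeq2's size factors, library totals, no low-count filter, DESeq2 1.42.0 (Wald test), limma 3.58.1 (voom with quality weights), the compared groups fitted alone, replicate numbers as a block and leaving out each library. The fits that leave out 2 libraries together were added after seeing the data.

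The members, gene lists and tests were chosen with earlier results of these data known. Named besides the members are up to 4 list genes with the smallest adjusted p, B2m, Tyrobp and Syk, and the 3 genes most like each member. Plcg2 in the parenchyma, Tmem119, Sall1, Cd79a and the promoters printed were chosen after their values were seen.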

Additional observations from a re-analysis of the deposited data

Results flagged for a closer look

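Of 42 sets of 4 libraries of a gene in a group, 2 held a library far from the others by Dixon's criterion, which chance meets in about 1 of 20 sets. Fcgr1 in control host microglia library 2 was at 257.1 CPM, below the other 3 libraries of its group. Fcgr4 in mutant donor microglia library 1 was at 36.5 CPM, above the other 3 libraries of its group.

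The effect of the compartment differed between donor and host cells, by the test of the difference itself, for 3 of 7 genes. The same test called 42.2% of all 12327 genes tested, so this count does not set the Fc receptor genes apart. The difference was 0.61 for Fcgr3, 0.36 for Fcer1g and -0.47 for Fcrls on the log2 scale, and Fcer1g was the least stable of them when libraries were left out, being called in 13 of 28 such fits.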

How the results depend on the processing

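Counts of called Fc receptor genes stayed within 1.5 times of those reported under every alternative run, except that the origin and compartment difference had 1 called gene without mutant host leptomeningeal library 2. With 1 library left out, the counts ran from 5 to 7 for donor minus host parenchyma, from 5 to 6 for donor minus host leptomeninges, from 7 to 7 for the donor compartments, from 5 to 6 for the host compartments, from 1 to 3 for the difference between origins, and stayed at 0 for every genotype comparison. The only called fold that changed sign was that of Fcgr4 between host compartments, -0.0090 without control host leptomeningeal library 1 and up to 0.76 without another library. Of 1624 alternative values of single genes, 145 differed in sign while not called in either fit. The labels do not say whether the replicate numbers pair the libraries. Over 86 same-numbered pairs the correlation of deviations ran from -0.18 to 0.13, with 2 over 0.1. These pairs include mutant with control groups, and different-numbered pairs were not compared. The correlations therefore cannot decide whether donor and host libraries came from the same animals. With the replicate block, 5 genes were called in donor minus host leptomeninges, where Fcgr2b had -0.26 (adjusted p = 0.0601), and 5 between host compartments, where Fcgr4 had 0.41 (adjusted p = 0.0721), while the counts of 6, 7 and 3 for donor minus host parenchyma, the donor compartments and the difference between origins, and 0 for genotype, were as reported. Over all genes tested, the block called 3330 genes in donor minus host leptomeninges and 6654 between host compartments. It called 7371 in donor minus host parenchyma, 7582 between donor compartments and 4889 for the difference between origins. For mutant minus control it called 8 in donor and 4 in host leptomeningeal cells, and 13 in donor and 9 in host microglia. Library totals lowered the median of all genes by over 0.1, to -0.14 and -0.22 for donor minus host in parenchyma and leptomeninges and to -0.28 and -0.10 between donor and host compartments, and the share of higher calls became 44.0%, 29.9%, 34.6% and 44.0%, against 54.8%, 56.0%, 49.1% and 54.8%. The cause of each lost or gained call was not tested. At this depth the scarcest gene, Fcgr4, had the widest intervals of the 7 in the origin and compartment contrasts.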
